A study of Mus musculus with 4 samples.

Results

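Follicular helper T cells were 135 of the 9307 cells in a single-cell RNA library of mouse splenic CD4+ T cells, and of 15646 cells in the series, which also holds a B cell library of 6339 cells. A cell was a member if it had at least 200 genes, under 10% mitochondrial transcripts, a hashtag with at least 10 molecules and at least 3 times the next one, a Cd3e transcript, none of Cd79a, Foxp3 or Mki67, and transcripts of at least 3 of the 6 genes Cxcr5, Bcl6, Pdcd1, Il21, Sostdc1 and Tox2. The members were thus chosen by the measured transcripts of these genes, whose values below describe the cells and test nothing. Of 7713 T cells that passed the filters, 6683 had neither Foxp3 nor Mki67 transcripts and could become members (eligible cells). The mice were C57BL/6NRj and either lacked Il2rb in B cells (KO, Il2rbfl/fl with a Cre driven in B cells) or were Cre controls, and each genotype was studied unimmunized (day 0) and on day 4 after sheep red blood cells were given intraperitoneally. Because the labels give both kinds of mice the same genotype, the hashtag names (KO or Cre) were used to tell them apart. The Cre acts in B cells, so the T cells described here are not the target of the deletion. The 4 hashtagged pools were 1 pool per group with an unstated number of mice, so no difference between pools was tested, and every interval below is a 95% interval of counting error only.

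Follicular helper T cells are the CD4+ T cells that enter B cell follicles and help B cells to form germinal centers. The transcription factor BCL6 drives their program, the chemokine receptor CXCR5 brings them to the follicle, and they act on B cells through CD40 ligand, ICOS, interleukin-21 and interleukin-4. Interleukin-2 signals through receptors that contain the chain encoded by Il2rb, activates STAT5 and opposes this program in CD4+ T cells.

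The promoters of Il21 and Il4 are shown because these encode the members' main B cell helper cytokines, and Il4 was measured outside the rule. They are the 250 bases before each transcription start, 5′ to 3′, from RefSeq on GRCm38.p6. Capitals mark GGAAAA, the core bound by NFAT factors, and TGCTGA, part of the element bound by MAF factors, on either strand (TTTTCC and TCAGCA are the reverse complements). The Il21 window is chr3:37232637-37232886 and the Il4 window chr11:53618666-53618915, both on the minus strand.
Il21: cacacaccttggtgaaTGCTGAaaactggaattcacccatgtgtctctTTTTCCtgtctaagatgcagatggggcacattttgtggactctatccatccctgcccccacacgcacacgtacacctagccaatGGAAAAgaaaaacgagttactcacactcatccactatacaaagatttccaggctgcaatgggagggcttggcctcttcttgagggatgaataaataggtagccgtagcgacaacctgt
Il4: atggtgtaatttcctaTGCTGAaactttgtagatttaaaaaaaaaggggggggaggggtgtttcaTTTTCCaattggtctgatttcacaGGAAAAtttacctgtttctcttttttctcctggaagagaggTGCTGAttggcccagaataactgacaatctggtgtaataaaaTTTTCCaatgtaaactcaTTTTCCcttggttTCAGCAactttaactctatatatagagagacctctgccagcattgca
The Il4 window held 4 GGAAAA matches, a number reached by 0.0396% of 32851 promoter windows of the same length, and 3 TGCTGA matches, reached by 0.146%. The Il21 window held 2 GGAAAA matches, reached by 2.85% of the windows, and 1 TGCTGA match, reached by 16.1%. No match of either motif overlapped another. A match describes the letters only. Transcripts of Nfatc1 and Maf, which encode an NFAT factor and a MAF factor, are given below.

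The members were deeper than other T cells. Their median was 10715 molecules in the control day 4 pool and 9350 in the KO day 4 pool, against 5458 and 5155 in eligible cells with none of the 6 genes (marker-negative cells). A gate that asks for several low transcripts takes deeper cells more easily, so levels are given as counts of the gene per 1000000 summed molecules (CPM), and shares of cells with a transcript also after thinning each cell to 3000 molecules. The 9307 cells shared 84 barcodes with the B cell library, and none of them was a member. A further 18 cells met every condition but the hashtag rule, and 0 were lost to Cd79a alone. The labels name a kit for naive CD4+ T cells, so the number of members per pool also depends on what that isolation let through.

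The members were mostly cells of immunized mice. The control day 0 pool held 1 member, 0.117% of its 853 eligible cells (interval 0.00297% to 0.651%), and the KO day 0 pool held 6, 0.566% of 1061 (0.208% to 1.23%). The control day 4 pool held 61 members, 3.69% of 1653 (2.83% to 4.72%), and the KO day 4 pool 67, 2.15% of 3116 (1.67% to 2.72%). The share was thus higher on day 4 than on day 0 in both genotypes, 31.5-fold in control (5.44 to 1263, with 1 cell on day 0) and 3.8-fold in KO mice (1.66 to 10.7). Each cell was also thinned to 3000 molecules, with 2 of the 6 genes asked for. The day 4 over day 0 ratios were then 12.4 (3.27 to 105) in control, with 2 cells on day 0, and 2.6 (1.18 to 6.75) in KO mice. On day 4 the KO share was 0.583 times the control share (0.406 to 0.838). Among all T cells the same ratio was 0.594. It was 0.681 (0.519 to 0.894) for cells with at least 2 of the 6 genes and 0.870 (0.751 to 1.01) for those with at least 1. When members and eligible cells also had to lack Cd79b, Ms4a1 and Ighm, an exclusion chosen after seeing the data, the day 4 ratio was 1.36 (0.404 to 5.88), on only 4 control and 11 KO members, and the KO ratio of day 4 over day 0 was 1.20. Day 4 members had no molecule of Cd79b or Ms4a1, so this exclusion removed them through Ighm alone. Just below the threshold, with exactly 2 of the 6 genes, stood 38 control and 60 KO cells on day 4, and just inside it, with 3, stood 29 and 31. Foxp3- cells with at least 3 of the 6 genes that had Mki67 transcripts, called dividing here and left out, were 17 of 78 in control (21.8%, 13.2% to 32.6%) and 28 of 95 in KO mice (29.5%, 20.6% to 39.7%) on day 4.

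**Figure D1:**
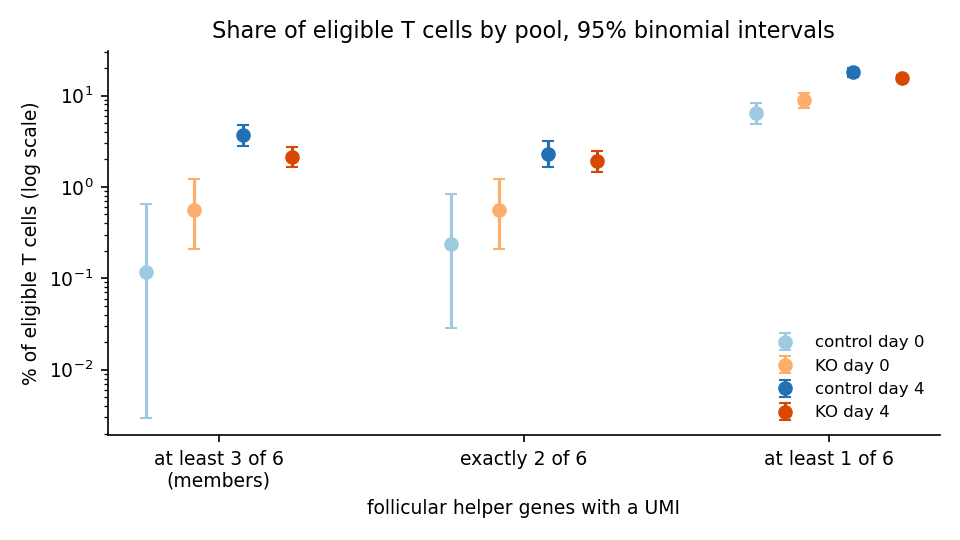
Percent of eligible T cells (log axis) with at least 3, exactly 2 or at least 1 of the 6 rule genes in each of the 4 pools; points are shares and bars 95% exact binomial intervals. Members made up 3.69% of the control day 4 and 2.15% of the KO day 4 pool, and both lay above the day 0 pools.

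Most members carried the classical genes of the rule. On day 4, Pdcd1, encoding the inhibitory receptor PD-1, was detected in 85.2% and 82.1% of control and KO members, Tox2, a nuclear factor of the program, in 83.6% and 80.6%, and Cxcr5 in 75.4% and 79.1%. Bcl6 was detected in 65.6% and 58.2%. Il21, the B cell helper cytokine, was found in 22 of 61 control members (36.1%, 24.2% to 49.4%) and 39 of 67 KO members (58.2%, 45.5% to 70.2%), and after thinning in 13.1% and 26.2%. Its summed level was 115 and 143 CPM. Sostdc1, encoding a secreted antagonist of BMP and WNT signals, was found in only 27.9% and 26.9% but reached 42 molecules in a cell. The commonest combinations were Cxcr5, Pdcd1 and Tox2 (18 members), the same with Bcl6 (17) and all but Sostdc1 (14), and 5 members had all 6. In B cells of the B library on day 4, Il21 was found in 0 of 1487 control and 0 of 1950 KO cells (taking 3 counts as the limit of a 0, up to 0.202% and 0.154% of cells with a transcript), Pdcd1 in 0.0672% and 0.103%, and Tox2 in 0.403% and 0.41%, at median depths of 6076 and 5851 molecules. Cxcr5 and Bcl6 were found in 45.4% and 26% of control B cells, which express both genes.

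Outside the rule, members differed from marker-negative cells of the same pool by 2-fold or more in 1176 genes higher and 969 lower of 9967 tested in control mice (11.8% higher, 9.72% lower) and in 1384 higher and 1192 lower of 10660 in KO mice (13% higher, 11.2% lower), counting genes with at least 20 molecules in both sums together. A counting interval above 1 was found for 2381 of the control and 2579 of the KO genes, and one below 1 for 755 and 780. Fewer genes had an interval below 1 than were past 2-fold lower, so for part of the lower genes the interval included 1. These counts are descriptions of 1 pool each. Below, a pair of values for members is in the order control and KO, day 4 unless stated. Over genes tested in both pools, 693 were higher in both, which is 59.5% of the control and 58.5% of the KO list, and 465 were lower in both (48.5% and 48.4%). Scaled without ribosomal protein, mitochondrial, T cell receptor and immunoglobulin transcripts, the numbers higher and lower became 758 and 1242 for control mice and 868 and 1524 for KO mice, and the median log2 ratio of all genes went from 0.20 to -0.02 and from 0.23 to -0.03.

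Receptors and ligands for contact with B cells stood high in the members. Of 20 measured genes of the surface and costimulation list, 16 in control and 13 in KO mice were past 2-fold higher and 1 was past 2-fold lower, with a median log2 ratio of 1.95 and 2.17 against 0.20 and 0.23 over all genes. Tigit, an inhibitory receptor that binds CD155, stood at 1107 CPM in the control day 0 cell, 233 CPM in the KO day 0 members, 322 CPM in the control day 4 members and 231 CPM in the KO day 4 members. In marker-negative cells it stood at 6.77 and 3.61 CPM on day 4, ratios of 47.6 (35.1 to 65.4) and 64.1 (46.5 to 89.5). Icos, a costimulator that follicular helper cells need, stood at 1992 CPM in the control day 0 cell, 194 CPM in the KO day 0 members, 222 CPM in the control day 4 members and 298 CPM in the KO day 4 members. Its day 4 ratios to marker-negative cells were 3.89 (3.22 to 4.69) and 5.85 (5 to 6.84). Every pool of members lay above the 57.1 and 50.9 CPM of marker-negative cells on day 4. The day 0 values rested on 9 molecules in the control cell and 5 in the KO members, 4 of them in 1 cell. After thinning, Icos was detected in 44.3% and 53.8% of members, against 13.5% and 11% of marker-negative cells. Cd200, a ligand of an inhibitory receptor, was 7.83-fold and 8.25-fold higher, and Lag3, a receptor for MHC class II, 11.6-fold and 19.2-fold. Izumo1r, the folate receptor 4 found on these cells, was 3.54-fold and 3.18-fold higher. In control and KO members Btla, an inhibitory receptor, was 3.83-fold and 3.44-fold higher, P2rx7, a receptor for extracellular ATP, 9.56-fold and 6.94-fold, Nt5e, the ectoenzyme CD73, 5.65-fold and 6.23-fold and Tnfrsf4, the costimulator OX40, 4.98-fold and 7.11-fold. Cd28 was 2.17-fold and 2.31-fold higher and Cd40lg, the ligand that activates B cells through CD40, 1.56-fold (1.29 to 1.87) and 1.42-fold (1.17 to 1.7). Ly6c1, a surface protein low on these cells, was the lower gene, at 0.0451 and 0.0923 times the marker-negative level.

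Of 10 SLAM family and adaptor genes 4 in control and 3 in KO mice were past 2-fold higher and 0 and 1 past 2-fold lower. Sh2d1a, encoding the adaptor SAP that stable contact with B cells needs, stood at 472 and 429.6 CPM in members and 103 and 92 CPM in marker-negative cells (ratios 4.59 and 4.67), and Slamf6, a receptor that signals through it, was 3-fold and 3.23-fold higher. Of 9 measured TNF family ligands 3 in control and 4 in KO mice were past 2-fold higher and none past 2-fold lower. Tnfsf11 (RANKL) was 8.69-fold and 13.6-fold higher and Tnfsf8 (CD30 ligand) 3.37-fold and 3.06-fold. Ltb (lymphotoxin beta) was lower, at 0.836 (0.75 to 0.931) and 0.81 (0.725 to 0.903) times. Genes named by size alone were Tbc1d4, a RAB GTPase-activating protein, at 468 and 563 CPM against 40.5 and 26 CPM, Eea1, an early endosome tether, at 253 and 199 CPM against 16.6 and 11.3 CPM, and Smco4 at 398 and 437 CPM against 44.8 and 36.6 CPM.

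**Figure D2:**
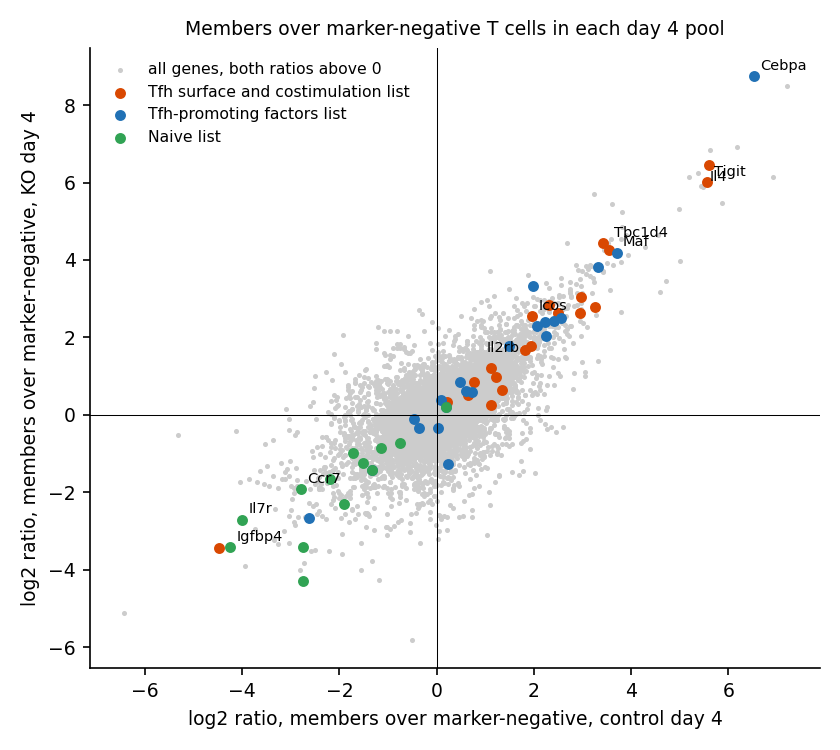
Log2 ratio of members over marker-negative T cells in the control day 4 pool (x axis) and the KO day 4 pool (y axis), 1 point per gene outside the rule, with the surface and costimulation, promoting factor and naive lists in color. Tigit, Il4, Maf and Tbc1d4 lie far up in both pools and Il7r and Igfbp4 far down.

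Transcription factors that favor the program were more often higher than lower. Of 21 measured genes of that list, 10 in each pool were past 2-fold higher and 2 in control and 3 in KO mice past 2-fold lower. Maf, which drives Il4 and Il21 in T cells, stood at 2214 CPM in the control day 0 cell, 505 CPM in the KO day 0 members, 696 CPM in the control day 4 members and 678 CPM in the KO day 4 members, against 53.5 and 37.1 CPM in marker-negative cells on day 4. Its ratios were 13 (11.4 to 14.9) and 18.3 (16.1 to 20.7), and after thinning it was detected in 73.8% and 83.1% of members against 7.74% and 6.12%. All 4 pools of members thus lay far above the marker-negative cells of day 4, the day 0 pools with only 1 and 6 members. Nfatc1, an NFAT factor activated by the T cell receptor, was 5.35-fold and 5.34-fold higher, Tox 4.69-fold and 5.29-fold, Id3, an inhibitor of E proteins, 4.77-fold and 4.11-fold, and Hif1a, the hypoxia factor, 5.88-fold and 5.7-fold. Batf, an AP-1 factor, was 2.8-fold and 3.42-fold higher and its partner Irf4 3.97-fold and 10.1-fold. Pou2af1, a coactivator best known in B cells, was 9.95-fold (5.35 to 18.4) and 14.2-fold (8.36 to 23.9) higher. Cebpa stood at 59.2 and 61 CPM in members, while marker-negative cells held only 5 and 2 molecules, so that its ratio of 92.7 in control (36.6 to 300.5) had a wide interval. Tcf7, encoding TCF1, was 1.15-fold and 1.16-fold higher with all transcripts in the total but 0.99 and 0.97 times without ribosomal, mitochondrial and receptor transcripts. Its relative Lef1 was lower, at 0.397 and 0.373 times, and Bach2, a repressor that keeps lymphocytes resting, at 0.163 and 0.159 times.

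Factors that oppose the program or mark other lineages showed no common direction. Of 20 measured genes, 4 in control and 2 in KO mice were past 2-fold higher and 5 and 7 past 2-fold lower. Prdm1, encoding BLIMP1, the repressor of Bcl6, stood at 8.66 and 8.51 CPM in members and 5.49 and 5.02 CPM in marker-negative cells, with ratios of 1.58 (0.549 to 3.72) and 1.69 (0.601 to 3.87), which these counts did not separate. Ikzf2 (Helios) was 7.41-fold and 7.21-fold higher and Gata3, the TH2 factor, 1.99-fold and 1.89-fold. Klf2, which holds T cells in recirculation and opposes the program, stood at 190.5 and 258 CPM against 540.5 and 614 CPM, ratios of 0.352 (0.294 to 0.419) and 0.42 (0.361 to 0.486).

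Interleukin-4 was a cytokine outside the rule with a large difference. Il4 stood at 221 CPM in the control day 0 cell, 466 CPM in the KO day 0 members, 160.2 CPM in the control day 4 members and 189 CPM in the KO day 4 members, against 3.58 and 3.18 CPM in marker-negative cells on day 4. Those are ratios of 44.8 (29.4 to 70.5) and 59.2 (42 to 85). All 4 pools of members lay above the marker-negative cells of day 4, the control day 0 cell with 1 molecule. Il4 was detected in 32 of 61 control and 37 of 67 KO members, and in B cells of the B library in 0.202% of control and 0 of 1950 KO cells (by the same limit of 3 counts, up to 0.154% with a transcript). Il4 and Il21 were found together in 14 control and 23 KO members, Il4 alone in 18 and 14, Il21 alone in 8 and 16, and neither in 21 and 14. The members thus held cells with both cytokines, either and neither, as far as their depth showed. Ifng was found in 2 and 2 members, Il2 in 1 and 2, and Il17a in 0 of both, by the same limit up to 4.92% and 4.48% of cells with a transcript. Cells that express a gene without a captured molecule are not counted in these shares. Il10 had 16 molecules in control members, 15 of them in 1 cell, and 0 in KO members.

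Genes of the naive state were lower, while the homing list ran both ways. Of 13 naive genes, 11 in control and 9 in KO mice were past 2-fold lower and none past 2-fold higher, with median log2 ratios of -1.91 and -1.67. Igfbp4 stood at 23.1 and 39.7 CPM in members against 438 and 424 CPM, and Il7r, the survival cytokine receptor of resting T cells, at 23.1 and 61 CPM against 368 and 396 CPM. Ccr7, the receptor for the T zone, stood at 39 and 82.2 CPM against 269 and 311 CPM. S1pr1, the exit receptor controlled by KLF2, was 0.354 and 0.381 times, and Selplg, the P-selectin ligand low on these cells, 0.494 and 0.498 times. S1pr2, which confines cells to germinal centers, was 9.42-fold (4.42 to 19.8) and 10.7-fold (5.33 to 20.8) higher on 15 and 15 molecules. Gpr183 (EBI2), which draws cells to the outer follicle, was 2.78-fold and 2.53-fold higher, and the integrin chain Itgb1 4.08-fold and 7.06-fold. The homing list as a whole had 8 of 22 genes in control and 9 of 24 in KO mice past 2-fold higher, and 4 and 5 past 2-fold lower, with median log2 ratios of 0.16 and 0.61.

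Many of these genes were graded with the number of rule genes detected. With 0, 1, 2, 3 and 4 to 6 of the 6 genes, in 3985, 558, 98, 60 and 68 day 4 cells, Maf stood at 42.9, 186, 442, 601 and 752 CPM. Tigit stood at 4.73, 38.8, 135, 246 and 299 CPM and Il4 at 3.32, 19.7, 68.2, 72.7 and 252 CPM. Icos was graded only up to 2 genes, at 53.1, 173, 300, 301 and 229.6 CPM. In the other direction Il7r stood at 386, 235, 99.6, 44.6 and 40.4 CPM and Ccr7 at 296, 224, 147, 80.9 and 45.4 CPM. Klf2 stood at 588, 514, 375, 368 and 115 CPM, with its lowest level at 4 to 6 genes. Depth went with the number of genes detected, with control day 4 medians of 5458, 5255.5, 7953.5 and 10631 molecules for 0, 1, 2 and 3 genes, and its part in this grading was not tested.

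**Figure D3:**
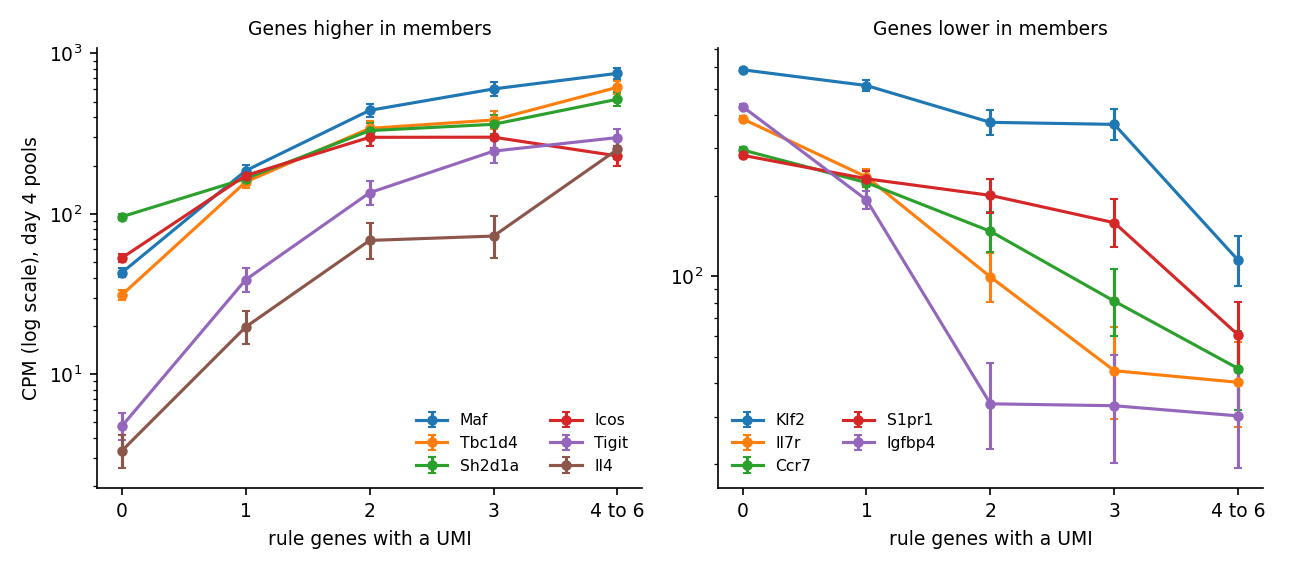
Level in CPM (log axis) of 6 genes that were higher and 5 that were lower in members, by the number of rule genes with a transcript, in both day 4 pools together; bars are 95% Poisson intervals. Maf ran from 42.9 to 752 CPM and Il7r from 386 to 40.4 CPM.

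The members carried transcripts of the beta but few of the alpha chain of the interleukin-2 receptor. Il2rb stood at 0 CPM in the control day 0 cell and 233 CPM in the KO day 0 members. These values rest on sums of only 4517 and 25741 molecules, so the 0 does not show absence. In the control and KO day 4 members Il2rb stood at 137 and 160.2 CPM, against 73.9 and 58.2 CPM in marker-negative cells on day 4. The day 4 ratios were 1.85 (1.48 to 2.31) and 2.76 (2.24 to 3.36). Over both day 4 pools the order of Il2rb was marker-negative cells at 63.8 (60.5 to 67.2), dividing follicular cells at 92.6 (73.3 to 115), members at 149 (129 to 170.4), regulatory cells (Foxp3+, at most 2 of the 6 genes) at 284 (264 to 304) and memory cells at 433 (404 to 464) CPM. No neighbours in that order had overlapping counting intervals. The memory cells, defined below, also carried innate-like transcripts, and their NK or innate-like list summed to 1095 CPM. That list summed to 115 CPM in marker-negative cells, 102 CPM in regulatory cells and 45.1 CPM in members. Il2ra, whose chain gives the receptor its high affinity, stood at 10.7 (6 to 17.7) CPM in members and 16.3 (14.7 to 18.1) CPM in marker-negative cells, which overlapped, and at 267 CPM in regulatory cells. Il2rg, the common gamma chain, was 0.982 (0.867 to 1.11) and 0.961 (0.849 to 1.08) times the marker-negative level. Of the IL-2 family and STAT5 list, 7 of 19 genes in control and 7 of 21 in KO mice were past 2-fold lower and 1 and 4 past 2-fold higher. The lower genes included Il7r, Il4ra (0.131 and 0.146 times), Bcl2 (0.238 and 0.288 times), and the feedback inhibitors of cytokine receptors Socs3 (0.209 and 0.297 times) and Cish (0.177 and 0.0891 times, on 2 and 1 molecules in members). Il21r, the receptor for interleukin-21, stood at 0.588 (0.404 to 0.831) and 0.684 (0.494 to 0.923) times.

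**Figure D4:**
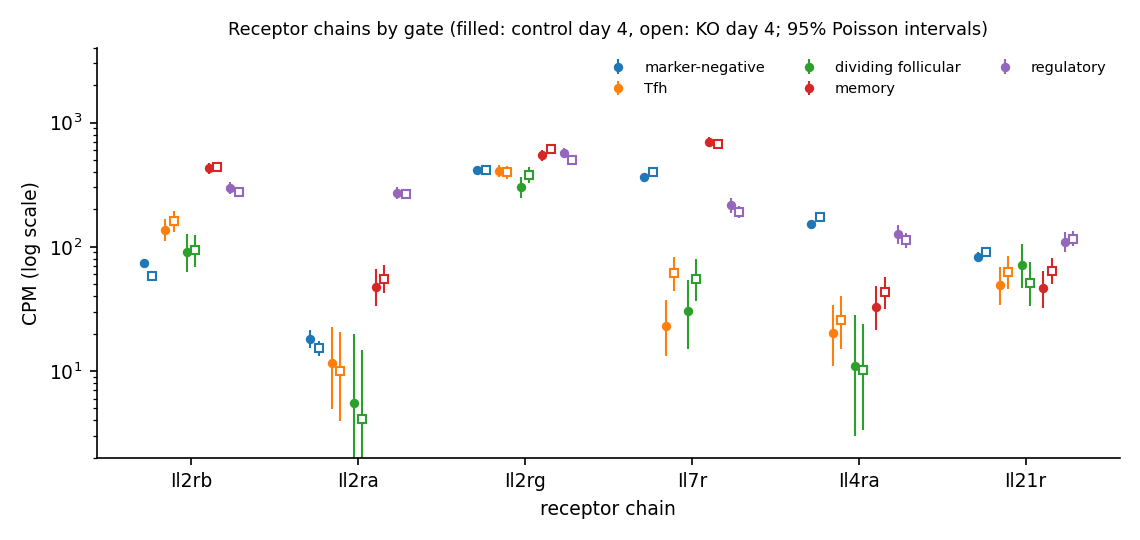
CPM (log axis) of receptor chains in 5 gates of T cells on day 4, filled for control and open for KO; bars are 95% Poisson intervals, cut at the lower edge of the axis. Members (Tfh) lie between marker-negative and regulatory cells for Il2rb, near marker-negative cells for Il2ra and far below them for Il7r and Il4ra.

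Survival, metabolism and memory genes also differed from marker-negative cells. Of 12 measured BCL2 family genes 6 in control and 4 in KO mice were past 2-fold higher and 1 and 2 past 2-fold lower. The anti-apoptotic Bcl2a1b and Bcl2a1d, near-identical copies between which reads can be split, were higher, the former 9.22-fold and 8.86-fold and the latter 13.9-fold and 15.3-fold, while Bcl2 was lower as given above. Of the glycolysis and mTORC1 list 6 of 22 and 8 of 23 genes were past 2-fold higher and 4 and 3 past 2-fold lower. Gapdh stood at 1658 and 1597 CPM against 585 and 589 CPM, and Ldha was 2.07-fold and 2.15-fold higher. Txnip and Tsc22d3, both high in resting cells, were lower, Txnip at 0.32 and 0.329 and Tsc22d3 at 0.254 and 0.159 times, as was Myc at 0.186 and 0.326 times. Of the memory and cytoskeletal list, 9 of 19 genes in control and 11 of 20 in KO mice were past 2-fold higher and 1 in each past 2-fold lower. S100a11 was 7.74-fold and 8.02-fold higher, S100a6 6.74-fold and 9.21-fold, and Anxa2 8.46-fold and 14.3-fold. Emp3 was the lower gene, at 0.235 and 0.39 times. Of 17 interferon-induced genes 2 and 4 were past 2-fold higher and 7 and 0 past 2-fold lower. Among them Ifi27l2a stood at 4545 and 5794 CPM against 1276 and 1362 CPM (ratios 3.56 and 4.25). Ifngr1, a chain of the interferon-gamma receptor, was 0.215 and 0.361 times.

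Markers of other cell types were checked for the whole lists. Cd4 was 1.91-fold and 2.29-fold higher in members than in marker-negative cells and Trac, the T cell receptor alpha constant gene, 1.52-fold and 1.76-fold. Of the B cell genes, Cd79b, Ms4a1, Ebf1 and Iglc2 had no molecule in day 4 members, while Cd22 stood at 20.2 and 17 CPM against 0.766 and 1.56 CPM in marker-negative cells and Pax5 at 7.22 and 7.09 CPM, on 5 molecules in each pool, against 0 and 0.0707 CPM. In the B cell list 8 of 12 genes in control and 6 of 12 in KO members had a transcript, and the list summed to 449 and 326 CPM against 196 and 191 CPM in marker-negative cells. Most of it was Ighm, at 368 and 272 CPM against 183 and 175 CPM, found in 57 of 61 control and 56 of 67 KO members (93.4% and 83.6%) and in 55.3% and 52.1% of marker-negative cells, and after thinning in 59% and 49.2% against 37.7% and 37.7%. In regulatory cells the B cell list summed to 737 and 480 CPM, above the members in both pools. The single control day 0 member held 17 molecules of this list, of Ighm, Igkc and Cd74. The part of these B cell transcripts in the other results was not tested. Of the CD8 list, Cd8a had no molecule in members and Cd8b1 stood at 13 and 7.09 CPM against 12.5 and 12 CPM. The regulatory list summed to 713 and 722 CPM in members, 218 and 197 CPM in marker-negative cells and 2231 and 1791 CPM in regulatory cells, with Itgae and Klrg1 at 0 in members of both pools. The NK or innate-like list summed to 67.8 and 22.7 CPM against 126 and 109 CPM, with Ncr1, Xcl1, Gzmb and Klra1 at 0. Hemoglobin genes and Alas2 summed to 34.6 and 4.25 CPM against 1120 and 223 CPM. The myeloid and dendritic list summed to 120 and 102 CPM against 83.6 and 80.3 CPM, with 5 of 12 genes detected in each pool and Lyz2, S100a8, S100a9, Flt3, Siglech and Xcr1 at 0 in both, and of 5 plasma cell genes only Xbp1 had a transcript, at 72.2 and 58.1 CPM against 30.8 and 34 CPM for that list.

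Compared with memory cells (Foxp3- and Mki67- cells with at most 1 of the 6 genes and at least 3 of S100a4, Itgb1, Cxcr3, Ccr2, Ccl5 and Id2), members over both day 4 pools were past 2-fold higher in 4.34% and lower in 6.97% of 8959 genes. Smtn, a smooth muscle cytoskeletal protein, stood at 95.1 CPM in members and 1.58 CPM in memory cells (ratio 60.2, 20.2 to 296). Angptl2 was 10.7-fold, Tigit 10.3-fold, Il4 6.9-fold and Rgs10, a regulator of G protein signals, 5.74-fold higher. The genes that chose the memory cells had to stand high in them and are not read here. Lower were Nkg7 (0.0354 times) and Il7r (0.0616 times), and Ly6c2 had 0 molecules in members against 446 CPM. Nkg7 belongs to the NK or innate-like list, which stood high in the memory cells as given above. Of the surface list 11 of 20 genes were past 2-fold higher than in memory cells and 2 lower. Compared with regulatory cells, members were past 2-fold higher in 5.63% and lower in 6.99% of 9279 genes. Of the surface list 8 of 21 genes were past 2-fold higher than in regulatory cells and 5 lower. Its median log2 ratio was 0.36 there and 1.08 against memory cells. Smtn was 90.8-fold (30.4 to 446), Il4 55.5-fold, Cebpa 6.37-fold and Tbc1d4 6.1-fold higher. Lrrc32, which carries latent TGF-beta (0.0101 times), Cish (0.0203 times), Il2ra (0.0402 times) and Ikzf4 (0.0592 times) were lower. Of the IL-2 family list, 13 of 20 genes were past 2-fold lower than in regulatory cells and 0 past 2-fold higher. The memory and cytoskeletal list, mostly higher in members than in marker-negative cells, had 3 of 19 genes past 2-fold higher than in regulatory cells and 2 lower. Its median log2 ratio there was -0.22.

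Dividing follicular cells, 45 on day 4, met the rule but for Mki67. They were past 2-fold higher than members in 5.91% and lower in 4.77% of 8100 genes. Pclaf stood at 641 CPM in them and 10 CPM in members, Stmn1 at 486 and 12.9 CPM and Hmgb2 at 3100.3 and 453 CPM, all genes of the dividing cell. Lag3 was lower in dividing cells than in members (0.37 times, 0.236 to 0.561), as were Tnfsf8 (0.403 times), Nt5e (0.406 times) and the integrin chain Itga4 (0.366 times). Compared with the 98 day 4 cells with exactly 2 of the 6 genes, members were past 2-fold higher in 2.46% and lower in 1.69% of 8061 genes. Il4 was 2.56-fold (1.93 to 3.43) and Tigit 2.04-fold (1.66 to 2.52) higher in members, and Ccr7 (0.413 times) and S1pr1 (0.514 times) lower.

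Between KO and control members on day 4, 2.52% of 6797 genes were past 2-fold higher and 1.93% past 2-fold lower in KO. Marker-negative cells, which were more numerous, had 0.794% and 1.14% of 11206. A counting interval above 1 was found for 5.12% of the 6797 genes and one below 1 for 3.97%. In marker-negative cells 878 of the 11206 genes had an interval above 1 and 515 had one below 1. Several main genes of the program had intervals that included 1. The KO to control ratio was 0.974 (0.857 to 1.11) for Maf, 0.91 (0.776 to 1.07) for Sh2d1a, 1.18 (0.908 to 1.53) for Il4, 1.17 (0.882 to 1.55) for Il2rb and 0.972 (0.821 to 1.15) for Il2rg. In marker-negative cells Maf was 0.693 times and Il2rb 0.787 times. Each KO to control ratio compares 1 pool with 1 pool, and differences between mice or handling cannot be told apart from genotype.

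Surface receptors leaned lower in KO members and in KO marker-negative cells alike. Of 18 measured surface and costimulation genes, 7 had an interval below 1 and 2 above it in members, and of 20 in marker-negative cells 5 and 2, with median log2 ratios of -0.14 and -0.15. In control and KO members Tigit measured 322 and 231 CPM, a ratio of 0.718 (0.583 to 0.883), and Izumo1r 544 and 404 CPM, a ratio of 0.743 (0.635 to 0.869). Cd200 measured 264 and 184 CPM, a ratio of 0.698 (0.553 to 0.879), and P2rx7 159 and 112 CPM, a ratio of 0.706 (0.522 to 0.951). In marker-negative cells Tigit was 0.533, Cd200 0.663, Izumo1r 0.826 and P2rx7 0.972 times the control level. Lag3 had a ratio of 0.579 (0.394 to 0.845), or 0.684 (0.458 to 1.01) without the control member with most of its molecules. Ctla4 was 0.685 times with all members and 1.26 (0.913 to 1.74) without 1 control member that held 62 molecules. Icos was higher, at 222 and 298 CPM (ratio 1.34, 1.08 to 1.66), and 1.22 (0.977 to 1.52) without 1 KO member. With the rule applied to cells thinned to 3000 molecules and 2 of the 6 genes asked for, Cd200 was 1.1 times and Icos 0.939 times.

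Homing, naive and interferon genes leaned higher in KO members. Ccr7 measured 39 and 82.2 CPM (ratio 2.11, 1.32 to 3.47), found in 16 of 61 control and 26 of 67 KO members. Nrp1, a semaphorin coreceptor, measured 39 and 90.7 CPM (ratio 2.33, 1.46 to 3.8), found in 16 of 61 control and 33 of 67 KO members. Both genes were thus found in a larger share of KO members. Itgb1 was 1.4 (1.21 to 1.62) times, and 0.807 times in marker-negative cells. Of 12 naive genes 4 had an interval above 1 and none below, and of 20 homing genes 6 above and 1 below, against 5 and 5 of 24 in marker-negative cells. In marker-negative cells 10 of 13 naive genes had one above 1, with a median log2 ratio of 0.12 against 0.37 in members. The 4 naive genes in members were Ccr7, Dapl1, Il7r and Klf2. Without the KO member with most molecules of the gene, Ccr7 was 1.83 (1.12 to 3.05) times. For the others the interval then included 1, with Dapl1 at 1.36 (0.871 to 2.14), Il7r at 1.66 (0.859 to 3.32) and Klf2 at 1.17 (0.917 to 1.48). Of 12 interferon genes 5 had an interval above 1 and none below, while in marker-negative cells 4 of 17 were above and 7 below. Bst2 (tetherin) measured 63.5 and 119 CPM (ratio 1.88, 1.29 to 2.77), Ifi213 30.3 and 65.2 CPM (ratio 2.15, 1.26 to 3.8) and Isg15, a ubiquitin-like protein, 124 and 197 CPM (ratio 1.59, 1.21 to 2.1). Isg15 was 0.76 times in marker-negative cells and Bst2 1.04 times. Of 19 memory and cytoskeletal genes 10 had an interval above 1 and 1 below it, against 4 and 6 of 20 in marker-negative cells, among the former in members Ly6a at 351 and 518 CPM (ratio 1.48, 1.25 to 1.74), Capg at 46.2 and 83.7 CPM (ratio 1.81, 1.16 to 2.88) and Emp3 at 69.3 and 118 CPM (ratio 1.7, 1.18 to 2.48). Emp3 was 0.76 times when 4 of the 6 genes were asked for. Median depth was lower in KO members, as given above, and its part in these ratios was not tested.

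Some values rested on few cells. Il7r had a ratio of 2.64 (1.46 to 5.02), from 9 control and 7 KO members, but was 1.66 (0.859 to 3.32) without 1 KO member, 0.472 times without cells over 20000 molecules and 0.313 times with the rule on thinned cells. Klf2 was 1.35 (1.08 to 1.71) times and 1.17 (0.917 to 1.48) without 1 KO member with 31 molecules. Irf4 was 2.15 times with all members and 1.42 (0.835 to 2.44) without 1 KO member. S100a4 was 2.04 times with all members and 5.48 (3.83 to 8.05) without 1 control member with 63 molecules. Id2 was 0.579 times with all members and 1.22 (0.632 to 2.41) without 1 control member. The chemokine gene Ccl5 had 127 molecules in control and 2 in KO members, 69 of them in 1 control cell.

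Named by size among genes with at least 100 molecules were Ifi206, an interferon-inducible gene, at 43.3 and 109 CPM (ratio 2.52, 1.63 to 3.98), and Trp53inp1, a p53-induced gene, at 83.7 and 194 CPM (ratio 2.32, 1.7 to 3.21). Trp53inp1 was 1.68 times and Ifi206 1.2 times in KO marker-negative cells. Oxct1, an enzyme of ketone body use, was 1.99 (1.35 to 2.97) times, Cct6a, a chaperonin subunit, 1.88 (1.59 to 2.24) times and Cd5, an inhibitory coreceptor of the T cell receptor, 1.69 (1.32 to 2.15) times. Cct6a was 1.06 and Cd5 1.05 times in marker-negative cells, below the members' intervals. Snx5, a sorting nexin of endosomes, was lower, at 154 and 85.1 CPM (ratio 0.551, 0.395 to 0.763), and 0.997 times in marker-negative cells.

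**Figure D5:**
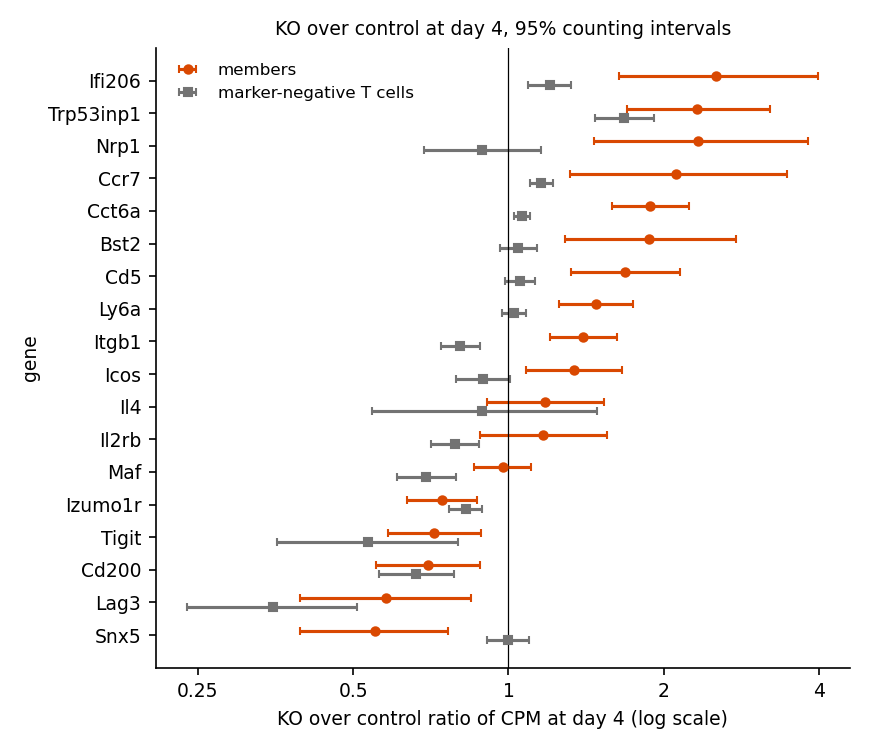
KO over control ratio of CPM on day 4 (log axis) for 18 genes in members (circles) and in marker-negative T cells (squares); bars are 95% counting intervals and the line marks 1. Cct6a, Cd5 and Itgb1 lie above 1 in members and near or below it in marker-negative cells, while Cd200, Tigit and Lag3 lie below 1 in both.

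The 6 KO members of day 0 summed to only 25741 molecules. Besides Maf, Tigit, Icos and Il4, given above, they held Cd40lg at 427 CPM, 10 of its 11 molecules in 1 cell. Compared with them the 67 KO day 4 members were past 2-fold higher in 30.5% and lower in 12.9% of 4933 genes, but 1.46% had a counting interval above 1 and 2.92% one below 1. For the rest the counting interval included 1.

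T cell receptor usage was spread. Trbv3 led the beta chain transcripts in 10 of 61 control members (16.4%, 8.15% to 28.1%) and 11 of 67 KO members (16.4%, 8.49% to 27.5%) on day 4, against 9.6% and 9.81% of marker-negative cells with a beta chain. Trbv1 led in 4 control and 10 KO members (6.56% and 14.9%), against 7.2% and 6.89%. Of 55 control and 56 KO members with both chains, 50 and 50 different pairs of variable genes were found, and 10 cells in each pool shared a pair with another member. A shared pair of variable genes is not a shared clone, since the junction sequences were not analysed here.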

How the data were processed

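Splenic CD4+ T cells and B cells were measured as 10x Genomics 5′ single-cell libraries with hashtag antibodies. The deposited values are raw UMI counts per gene and cell, made with Cell Ranger 5.0.0 on mm10 per the submitters' processing notes; which annotation release they used was not given in the sources used here. Members, the 25 lists (408 of 412 genes matched) and rules were chosen with earlier results of these data known.

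Cells were assigned to the 4 pools by hashtag, and counts of each gate and pool were summed over 32285 genes and divided by the summed total (CPM). No doublet caller was run; cells with an unclear hashtag, or with Cd79a, were left out. With 1 pool per group no test was possible. Ratios have exact conditional binomial intervals, shares exact Clopper-Pearson intervals and levels exact Poisson intervals at 95%, which cover counting error only. A count of 0 was given a floor of 3 counts. A gene was compared where the sums of both gates held 20 UMIs or more together, and a ratio past 2-fold was called.

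Named genes were the rule genes, up to 4 at each end of every list, the interleukin-2 receptor chains, and the 12 at each end of each comparison among genes with at least 100 UMIs, at most 10% of them from 1 cell. Some others were named for their role, or for resting on 1 cell, after their values were seen. Alternatives changed the rule, depth, hashtag limits, B cell exclusion, scaling, cell weights and minimum counts. A planned wider form of that exclusion and a few list genes are not reported here, and those genes were left out of the list counts. The script was tested on simulated data. Python 3.11.15, numpy 2.4.6, scipy 1.17.1, pandas 2.3.3 and matplotlib 3.10.9 were used.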

Additional observations from a re-analysis of the deposited data

Results flagged for a closer look

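The KO to control ratio of the members' share of eligible T cells lay on opposite sides of 1 on the days studied. It was 0.583 (0.406 to 0.838) on day 4, from 67 KO and 61 control members, and 4.82 (0.585 to 222) on day 0, from 6 KO members and 1 control member. The difference between the days was not tested, and the day 0 interval includes 1.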

How the results depend on the processing

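No paired analysis was possible because each group was 1 hashtagged pool, and for the same reason no replicate could be left out. The day 4 KO to control share ratio stayed below 1 under every other alternative run (0.566 to 0.681, and 0.870 for cells with at least 1 of the 6 genes), except 1.36 when Cd79b, Ms4a1 and Ighm also had to be 0, which left 4 control and 11 KO members; the KO ratio of day 4 over day 0 was then 1.20. The day 0 ratio could not be computed there or with a 5% mitochondrial limit, nor the Isg15 ratio of KO over control there. In control members that exclusion also gave Cd28 0.626, Cish 1.48, Ifi27l2a 0.875, Nt5e 0 and S100a10 0.978 times the marker-negative level, 1967 genes higher and 3385 lower, and in KO members 2277 lower; KO over control then had 31 lower. Scaling without ribosomal, mitochondrial and receptor transcripts gave 758 (control) and 868 (KO) genes higher than in marker-negative cells. A minimum of 100 UMIs gave 588 higher and 380 lower in control, 744 and 548 in KO, 5 and 4 for KO over control, and 180 and 29 for KO day 4 over day 0. No minimum gave 2308 higher in control, 2377 higher and 734 lower in KO, and 665 and 840 for KO over control. The Il7r ratio of KO over control was 0.313 with the rule on thinned cells and 0.472 without cells over 20000 UMIs. Of 448 values of 40 genes for KO over control, 420 kept their side of 1. Of 779 (control) and 781 (KO) values of 72 genes against marker-negative cells, 764 and 771 did. Minimum counts decide which genes are compared and leave each ratio unchanged, so those values kept their side by construction. They were 32 and 40 of the 448, and 66 and 72 of each of the others. With the rule on thinned cells 32 of 40 KO over control values kept their side, and with the B cell exclusion 12 of 19. Against marker-negative cells these were 71 of 72 and 56 of 66 in control, and 70 of 72 and 64 of 68 in KO. That exclusion and the alternative without the member with the most UMIs of a gene were added after seeing the data. The day 0 values rest on 1 and 6 cells.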
